A study of Mus musculus with 7 samples.

Results

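Proliferating cells of the Neu tumors were chosen by the counts of 8 genes of the dividing cell. These were the cyclins Ccna2 and Ccnb1, their kinase Cdk1, the topoisomerase Top2a, the kinetochore protein Cenpf, the ubiquitin conjugase Ube2c and the spindle proteins Tpx2 and Nusap1. The counts are unique molecular identifiers (UMIs), each of which stands for 1 captured mRNA molecule. A cell with at least 1000 UMIs, at least 500 detected genes and under 20% of its UMIs from mitochondrial genes was chosen when at least 3 of the 8 genes had a UMI. This selected 152 of 4305 Neu cells, 49 of 2308 in replicate A and 103 of 1997 in replicate B. The same rule selected 1018 of 12168 cells over all 7 libraries of the study.

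The study profiled single cells from mouse mammary tumors by droplet 3' RNA sequencing, after sorting of CD24+ cells that lacked Ter119, CD31 and CD45. Neu tumors arose spontaneously in MMTV-Neu mice, in which the mouse mammary tumor virus promoter drives the Neu (ErbB2) oncogene in mammary epithelium. PyMT tumors, the comparison used here, grew in mice that received FF99WT cells, a single line from an autochthonous MMTV-PyMT tumor whose FIP200 alleles are floxed, without Cre recombinase. The labels give adult mice of strain FVB/NJ for the Neu tumors. The protocol text of replicate A says that tumors were not treated and that the Neu tumors were spontaneous. By the study's methods the MMTV-Neu strain had been crossed to mice with floxed FIP200, and the tumor of replicate A carried floxed FIP200 alleles without Cre recombinase, as the source of the line N148. The FIP200 alleles of the replicate B tumor are not given in the sources used here. Each library is 1 tumor, and replicates A and B of a tumor type were sequenced in separate batches, so tumor and batch cannot be told apart.

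A dividing cell first duplicates its DNA in S phase, with the help of E2F-driven genes such as the MCM helicase and thymidylate synthase. It then makes the cyclin B and Cdk1 kinase, the spindle motors and the chromosome passenger proteins of G2 and mitosis, many of which are controlled through the DREAM, B-MYB and FOXM1 complexes. Luminal alveolar cells of the mammary gland make milk proteins once they differentiate.

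RefSeq promoters (GRCm38.p6) of 5 genes are shown, to let promoters with these letters be read beside one without them. Cdk1 is one of the 8 genes of the rule, Ccnb2, Cdc20 and Birc5 belong to G2 and mitosis, and Mcm5 belongs to S phase. They were picked with the matches in view and are no sample of the lists. Each line gives the 250 bases upstream of the annotated start, 5′ to 3′ on the strand of the gene. Capitals mark the letters of the cell cycle homology region (CHR; TTTGAA or TTCGAA), the CCAAT box, and E2F sites (TTTCGCGC, TTTGGCGC, TTTCCCGC or TTCCCGCC), each searched on both strands.
Cdk1 (chr10:69352913-69353162, minus strand): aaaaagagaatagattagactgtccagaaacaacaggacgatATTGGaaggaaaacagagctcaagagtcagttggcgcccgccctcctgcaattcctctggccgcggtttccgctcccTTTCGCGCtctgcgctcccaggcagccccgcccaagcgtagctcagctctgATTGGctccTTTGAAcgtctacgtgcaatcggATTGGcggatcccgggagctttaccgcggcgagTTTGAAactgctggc
Ccnb2 (chr9:70421555-70421804, minus strand): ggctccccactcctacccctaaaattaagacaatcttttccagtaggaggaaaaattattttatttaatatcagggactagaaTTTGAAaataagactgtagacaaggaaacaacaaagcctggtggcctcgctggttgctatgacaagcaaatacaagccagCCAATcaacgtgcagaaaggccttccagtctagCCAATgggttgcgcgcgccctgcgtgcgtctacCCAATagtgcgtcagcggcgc
Cdc20 (chr4:118437344-118437593, minus strand): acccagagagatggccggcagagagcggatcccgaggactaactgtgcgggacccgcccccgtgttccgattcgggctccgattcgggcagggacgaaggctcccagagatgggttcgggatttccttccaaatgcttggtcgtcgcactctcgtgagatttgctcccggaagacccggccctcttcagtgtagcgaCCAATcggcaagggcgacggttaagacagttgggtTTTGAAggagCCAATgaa
Mcm5 (chr8:75109259-75109508, plus strand): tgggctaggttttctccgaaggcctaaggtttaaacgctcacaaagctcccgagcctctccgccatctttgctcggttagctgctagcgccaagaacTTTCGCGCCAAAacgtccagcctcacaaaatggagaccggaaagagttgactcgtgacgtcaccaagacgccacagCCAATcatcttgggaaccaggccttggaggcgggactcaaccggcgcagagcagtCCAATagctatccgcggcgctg
Birc5 (chr11:117848987-117849236, plus strand): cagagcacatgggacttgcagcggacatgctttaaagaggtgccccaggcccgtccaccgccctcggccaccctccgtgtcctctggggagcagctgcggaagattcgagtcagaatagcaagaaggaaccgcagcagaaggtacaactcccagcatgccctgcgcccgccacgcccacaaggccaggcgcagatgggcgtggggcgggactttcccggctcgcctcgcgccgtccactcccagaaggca
In Cdk1 CHR letters began 71 and 15 bases upstream of the start, CCAAT boxes 208, 80 and 48 bases upstream, and an E2F match 131 bases upstream. In Cdc20 the CHR letters began 18 bases upstream, between CCAAT boxes at 53 and 8 bases. Mcm5 had overlapping E2F matches beginning 153 and 149 bases upstream and no CHR letters in the window. Birc5 had none of the letters, and neither had Tyms, an S phase gene described below.

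Over promoters of 300 bases (250 upstream and 50 downstream), CHR letters were found in 34 of 46 promoters of the G2/M gene list, or 73.9%, against 19.2% of all 32851 promoters. In the S phase list they were found in 6 of 32 promoters, or 18.8%. E2F letters showed the other pattern, with 16 of 32 S phase promoters (50.0%) and 2 of 46 G2/M promoters (4.35%) against 3.49% of all. At least 2 CCAAT boxes stood in 54.3% of G2/M and 43.8% of S phase promoters against 11.7% of all. The E2F letters can overlap one another. None of the 23 promoters found for the NF-kB list held CHR letters. These matches are a description of letters in the window, and the lists were known cell cycle genes. RefSeq promoters were found for 41 of 46 G2/M genes and 29 of 41 S phase genes.

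Neu libraries held 22267994 UMIs in replicate A and 33857405 in replicate B, and the 7 libraries ranged from 5729799 to 38028054. Neu cells had a median of 8609 UMIs in replicate A and 15642 in replicate B. The doublet caller Scrublet marked 7 of 4305 Neu cells and none of the proliferating ones, so doublets were in effect not removed. Of 118 barcodes found in more than 1 library, 6 were shared by the Neu libraries, and 1 proliferating Neu cell carried a shared barcode.

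Erbb2, the mouse gene of the oncogene that drives these tumors, was counted at low levels. In the sums described below, scaled by TMM, it stood at 8.60 and 12.7 UMIs per 1000000 (CPM) in the proliferating cells of replicates A and B, and at 26.2 and 22.0 in their matched cells. The groups did not overlap, and the log2 fold change was -1.03 ± 0.29 (SE; adjusted p = 0.0095). Without replicate A it was -0.77 (adjusted p = 0.114), and DESeq2 did not call it (adjusted p = 0.306). The matrices hold no separate feature for the transgene.

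Proliferating cells made up 2.12% of replicate A, with a 95% Clopper-Pearson interval of 1.57% to 2.80%, and 5.16% of replicate B (4.23% to 6.22%). Intervals here cover counting error only. Replicate B was sequenced more deeply, and depth bears on a rule that asks for detected genes. After each cell was thinned to 3000 UMIs the shares were 1.06% (22 of 2075; 0.666% to 1.60%) and 1.90% (37 of 1948; 1.34% to 2.61%), and the intervals overlapped. With 2 libraries of a tumor type no exact permutation test can reach 0.05, and none was run.

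Because the 8 genes chose the cells, their values are a description. Cdk1 had a UMI in 39 of 49 chosen cells in replicate A and 86 of 103 in replicate B. Ube2c, the ubiquitin conjugase of the anaphase-promoting complex, reached the highest count of 1 cell, with 51 UMIs in replicate A and 77 in replicate B. Nusap1, a spindle protein, was found least often, in 26 of 49 cells of replicate A and 59 of 103 in replicate B. Between 76.6% and 96.3% of all UMIs of a rule gene lay in the chosen cells.

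Many of the chosen cells were well inside the threshold. All 8 genes were detected in 13 cells in replicate A and 32 in replicate B. Just inside it, 12 cells in replicate A and 21 in replicate B had exactly 3 of the genes. Just outside it, 20 and 63 cells had exactly 2. Median depth of the cells with 3 genes was 5925.5 UMIs in replicate A and 21331 in replicate B, against 14794.5 and 22410 in the cells with 2.

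Gene levels in the cells just outside were not alike in the tumors. In replicate A the cells with 2 rule genes held 2369 CPM of S phase RNA (41 genes) and 1302 CPM of G2/M RNA (46 genes, rule genes left out). Cells with 3 rule genes held 2193 and 2683 CPM. In replicate B the cells with 2 rule genes held 679 and 887 CPM, and those with 3 held 946 and 1422 CPM. Cells of replicate A with 2 rule genes were thus rich in S phase RNA, and some cycling cells lay outside the rule.

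Proliferating cells were deep, with a median of 19271 UMIs in replicate A and 27439 in replicate B, against 8183 and 14328.5 in cells without any of the 8 genes. They were therefore compared with cells of the same library that had no UMI of the 8 genes and lay within 10% of the UMI total, up to 3 for each. In replicate A all 49 cells found matches, 141 in all. In replicate B 98 of 103 did, with 260 matched cells, and the 5 others were left out of this comparison. Median depth of the pairs was 19271 against 16274 UMIs in replicate A and 26912.5 against 25159.5 in replicate B. At 3000 UMIs per cell, proliferating cells still showed more genes, with medians of 1326 against 1258.5 in replicate A and 1226 against 1155 in replicate B.

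The chosen cells carried epithelial RNA, as did nearly all cells of these sorted libraries. At 3000 UMIs, Epcam had a UMI in all 46 proliferating cells of that depth in replicate A and in all 103 in replicate B. It was also found in 99.9% and 99.6% of the other cells, so it does not set the chosen cells apart. Of 9 epithelial markers tested in the sums described below, 6 were lower in proliferating cells, 2 of them in all 3 scalings, and none was higher (median log2 fold change -0.34). Markers of other cell types were near 0. Of 14 immune markers 10 had no UMI in the proliferating cells of either replicate, and the list summed to 21.6 and 4.66 CPM against 9.24 and 6.88 in the matched cells. Endothelial markers (7 genes) summed to 16.5 and 20.0 CPM against 11.1 and 10.4. Fibroblast and pericyte markers (10 genes) summed to 5.09 and 13.0 CPM against 7.85 and 13.0, and basal markers (9 genes) to 11.4 and 11.0 CPM against 25.9 and 9.79. In replicate B 1 cell had 3 or more endothelial markers and 1 had 3 or more fibroblast markers. The defining immune gene Ptprc (CD45) had no UMI in these cells at 3000 UMIs. The other Neu cells had none either, after a sort for cells that lacked CD45, so its absence adds little. The red cell list (6 genes) had 0 UMIs in replicate A and 5 in replicate B. The part of these small sums in the results below was not tested.

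UMIs were summed over the proliferating cells and over the matched cells of each library, and the sums were tested with edgeR across 9975 genes, the 8 rule genes left out. PyMT sums in the fit gave 2 residual degrees of freedom. In such sums, fewer cells of a kind and less RNA per cell cannot be told apart. At an adjusted p under 0.05, 1034 genes were higher in proliferating Neu cells (10.4% of those tested) and 1498 were lower (15%). The median log2 fold change of all genes tested was -0.16 in this scaling (TMM) and 0.02 when sums were scaled by their total counts, a shift of gene levels that the scaling sets. With total counts, 65.8% of calls were increases, against 40.8% with TMM. All 1034 increases were also called by total counts and by DESeq2 size factors, but only 769 of the decreases were. Decreases named below were called in all 3 scalings unless stated.

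These counts rested on the pairing of sums within a tumor and on both tumors. Without the library as a replicate block, 353 genes were higher and 35 lower. Without replicate B 565 were higher and 653 lower, and without replicate A 780 were higher and 685 lower. DESeq2 called 558 higher and 211 lower.

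Genes of G2 and mitosis rose most. Of 46 genes of the G2/M list, 45 passed the test upward and none downward, with a median log2 fold change of 5.33 against -0.16 over all genes tested. These genes accompany the rule genes in any dividing cell, so their rise describes the cells rather than adding an independent finding. Birc5 (survivin, a subunit of the chromosomal passenger complex) stood at 338 and 265 CPM in proliferating cells of replicates A and B, and at 1.35 and 3.93 CPM in matched cells. Its log2 fold change was 6.48 ± 0.24 (SE; adjusted p = 9.8e-18), and 7.91 without replicate B. Mki67, which coats mitotic chromosomes, was at 167 and 189.5 CPM against 0 and 1.54 CPM. Both genes were high in each tumor and near absent from the matched cells.

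Aurkb, the kinase of the same complex, had 199 UMIs in the proliferating cells and none in the matched ones. Its level was at least 165-fold higher, taking a floor of 3 counts over both libraries. Hmmr, a spindle protein, had 473 UMIs against 2, a ratio of 588 with an exact counting interval of 162 to 4866. For Shcbp1, a protein of the cytokinesis midbody, the counts were 150 and 1, and the ratio of 373 had an interval of 65.9 to 14817. Counts this low in the matched cells gave these ratios wide intervals. Cdkn3, a phosphatase that acts on Cdk1 and Cdk2, was at 97.8 and 104 CPM against 0 and 1.20 CPM. Pclaf, a PCNA partner, was at 336 and 255 CPM against 1.35 and 2.39 CPM (log2 fold change 7.03 ± 0.22, adjusted p = 2.72e-19; 7.91 without replicate B).

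Cyclins, motors and kinetochore parts followed the same pattern. Ccnb2 (cyclin B2), whose promoter is printed above, was at 171 and 193 CPM against 0 and 1.37 CPM. Among cyclins, kinases and subunits of the anaphase-promoting complex, 18 of 21 genes rose and none fell. Of kinesins 12 of 15 rose, and of kinetochore and passenger genes 21 of 22. Gene lists share members, here and below, so their counts are not independent of one another. Cdc20, an activator of the anaphase-promoting complex, was at 144 and 121 CPM against 1.80 and 3.08 CPM. Pttg1 (securin) was at 141 and 237 CPM against 3.61 and 9.57 CPM. Cenpa, the histone of the centromere, was at 215 and 239 CPM against 3.16 and 4.10 CPM. For each of these genes both proliferating sums lay above both matched sums, which held for 17.7% of all genes tested.

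**Figure D1:**
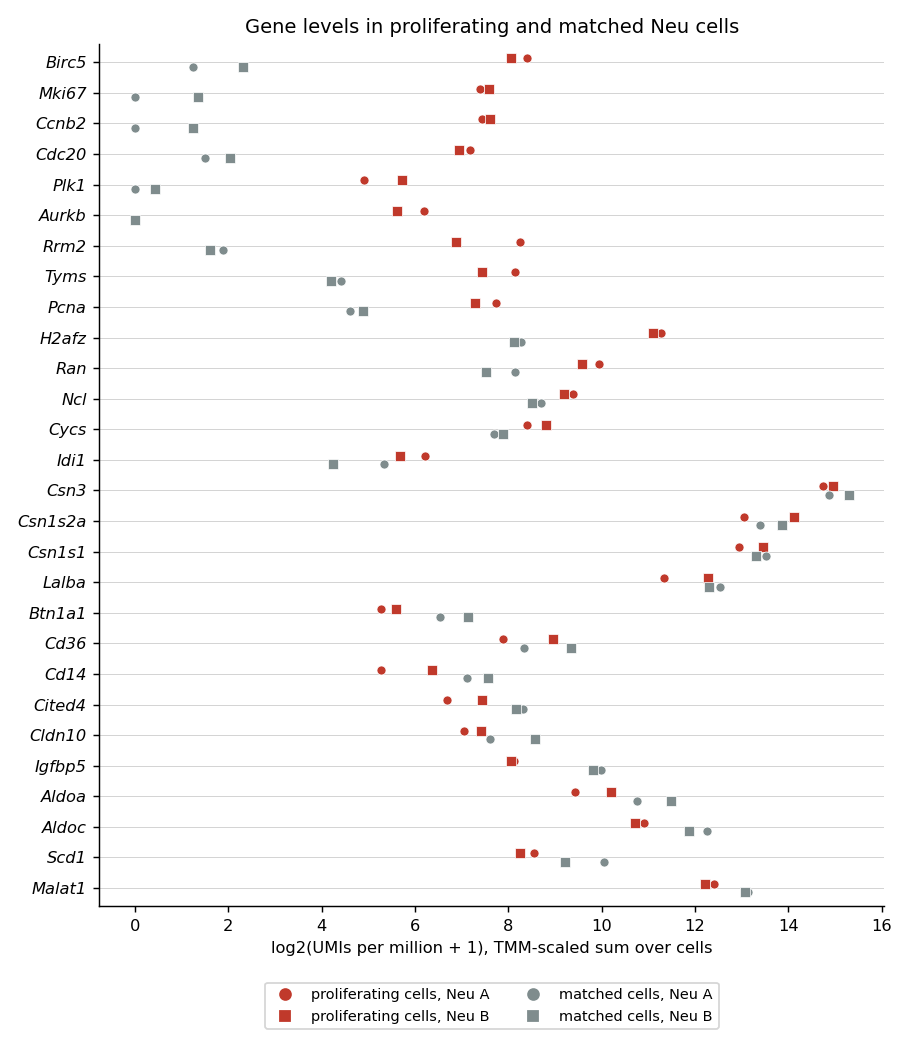
Levels of 28 genes in the sums of proliferating (red) and depth-matched (grey) Neu cells, replicate A as circles and replicate B as squares, on a log2(CPM + 1) axis. Birc5 lies at 338 and 265 CPM in proliferating cells and 1.35 and 3.93 CPM in matched cells, whereas Csn1s2a overlaps between them and Igfbp5 is lower in both proliferating sums. The genes were picked for display from those described in the text.

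S phase genes rose as a group, by less. Since genes of the dividing cell chose the cells, this rise too describes them rather than adding an independent finding. The same holds for the lists of replication, histones, DNA damage, E2F factors and nucleotide synthesis. Of 41 genes on the S phase list 38 passed upward and none downward (median log2 fold change 2.95), and all 29 tested genes of replication licensing and the fork passed upward (median 2.47). Tyms, thymidylate synthase, was at 279 and 173 CPM against 20.3 and 17.3 CPM (log2 fold change 3.50 ± 0.16, adjusted p = 7.71e-16). Rrm2, the cell cycle subunit of ribonucleotide reductase, was at 301 and 117 CPM against 2.71 and 2.05 CPM. For Pcna, the sliding clamp of DNA polymerase, the values were 211 and 154 CPM against 23.5 and 28.4 CPM. Mcm5 was at 76.3 and 32.0 CPM against 11.7 and 3.25 CPM. Replicate A was the higher of the tumors for all 4 of these genes.

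Histones and their partners split by type. Of 17 tested histone and chaperone genes 15 rose and 2 fell. H2afz, a variant H2A, was abundant at 2483 and 2176 CPM against 307 and 277 CPM (log2 fold change 2.99 ± 0.09, adjusted p = 1.48e-19). Hist1h1c, a linker histone that is polyadenylated in resting cells, was at 170 and 151 CPM against 204 and 241 CPM, and its decrease was lost with total counts and without replicate B (log2 fold change -0.26, adjusted p = 0.455). Genes of DNA damage and recombination rose in 16 of 20 cases and fell in none, with a median log2 fold change of 3.79.

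Regulators of the cell cycle genes rose, activators and repressors alike, and Myc fell. Among E2F, MYB and FOXM1 factors 8 of 13 tested genes rose and 1 fell. E2f1 was at 43.0 and 22.6 CPM against 1.80 and 1.88 CPM (log2 fold change 3.90 ± 0.35, adjusted p = 1.39e-09; 4.54 without replicate B). Mybl2 (B-MYB) had 50 UMIs in proliferating cells against 2 in matched cells, a ratio of 62.1 with a counting interval of 16.3 to 527. Myc, the growth factor response gene, was at 9.67 and 15.3 CPM against 31.1 and 24.8 CPM, and its log2 fold change of -0.97 ± 0.25 passed the test (adjusted p = 0.00471). Without replicate A it was -0.67 (adjusted p = 0.14), without replicate B it was -1.68, and DESeq2 did not call it (adjusted p = 0.118).

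Cell cycle inhibitors moved both ways. Of 23 genes for inhibitors and p53 targets 6 rose and 5 fell, 4 of the latter in all 3 scalings. Cdkn2d (p19Ink4d) rose to 139 and 94.2 CPM from 19.4 and 13.3 CPM in matched cells (log2 fold change 2.82 ± 0.19, adjusted p = 4.48e-12). Cdkn2a (p16Ink4a and p19Arf) was low, at 6.45 and 11.3 CPM against 0 and 1.03 CPM. Gadd45b, a stress response gene, fell to 34.4 and 13.5 CPM from 118 and 37.4 CPM (log2 fold change -1.62 ± 0.21, adjusted p = 9.62e-07). Gadd45a, its relative, was at 33.3 and 37.8 CPM against 50.1 and 90.4 CPM, and was no longer called without replicate B (log2 fold change -0.59, adjusted p = 0.256).

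Within the chosen cells, S and G2/M RNA spread over a wide range, and whether they formed classes was not tested. The S phase list made up a median of 33.9% of a cell's S and G2/M UMIs in replicate A (lower and upper quartile 15.0% and 55.0%) and 21.4% in replicate B (13.8% and 39.4%). Matched cells, with few such UMIs, had medians of 33.3% and 28.6%, so the share alone does not set the chosen cells apart. S phase UMIs outnumbered G2/M UMIs in 17 of 49 cells in replicate A and 18 of 103 in replicate B. In sums, replicate A held 3157 CPM of S phase RNA and 6023 CPM of G2/M RNA, and replicate B 1545 and 4709 CPM. Matched cells held 391 and 591 CPM in replicate A and 231 and 533 CPM in replicate B. Across the 46 cells of replicate A with 3000 UMIs the S and G2/M sums had a Spearman rho of -0.22, and across 103 cells of replicate B one of 0.12. The cells of a library share depth and free RNA, so these coefficients are descriptions.

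**Figure D2:**
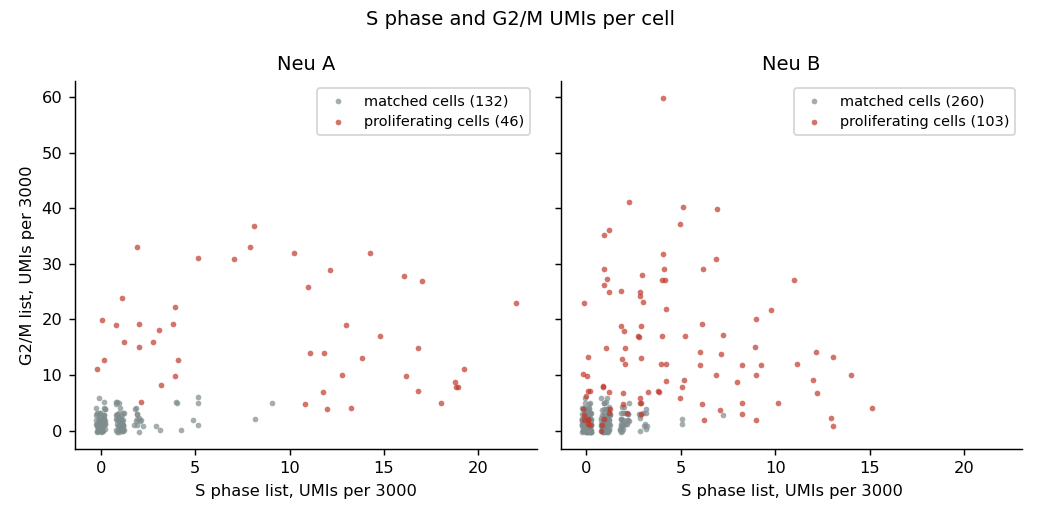
UMIs of the S phase list (x axis) and the G2/M list (y axis) per cell, each cell thinned to 3000 UMIs, for proliferating (red) and matched (grey) cells of Neu A (46 and 132 cells) and Neu B (103 and 260 cells). Points are jittered by less than 1 UMI. Most matched cells lie near the origin, and the proliferating cells spread along both axes, with some of replicate B inside the range of the matched cells.

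Milk RNA was abundant in the dividing cells. At 3000 UMIs per cell the 10 milk protein genes gave a median of 144 UMIs in proliferating cells of replicate A and 153 in replicate B, and 135 and 167.5 in matched cells. The middle 80% of proliferating cells reached from 75 to 278 UMIs in replicate A and from 75.6 to 402 in replicate B, and that of matched cells from 39.1 to 328 and from 48.0 to 366, so the groups overlapped. Of 10 milk genes tested 1 rose and 3 fell, and the median log2 fold change was -0.22 against -0.16 for all genes tested. The cell of either library with the least milk RNA held 3 such UMIs of 3000. No class of cells without milk transcription was found to measure free RNA, because the 11 and 5 cells with 3 or more immune markers also carried Epcam wherever they had 3000 UMIs.

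The caseins showed no common direction. Csn1s2a was at 8461 and 17747 CPM in proliferating cells and 10681 and 14878 CPM in matched cells (log2 fold change -0.04 ± 0.08, adjusted p = 0.785). That gene was called higher when each cell had a single match (0.26, adjusted p = 4.24e-05) and without replicate A (0.28, adjusted p = 0.0233), and lower without replicate B (-0.34, adjusted p = 0.0015). Csn1s1 was at 7865 and 11289 CPM against 11738 and 10112 CPM (log2 fold change -0.21, adjusted p = 0.122), and was called lower without replicate B (-0.58, adjusted p = 2.01e-10) and not without replicate A (0.18, adjusted p = 0.237). Csn3, kappa casein and the most abundant of them, was at 27376 and 31880.1 CPM against 29773 and 40151 CPM. Its log2 fold change of -0.23 ± 0.05 passed the test (adjusted p = 0.00122) but was lost with total counts (-0.03, adjusted p = 0.635), without replicate B (-0.12, adjusted p = 0.113) and without PyMT replicate A (-0.11, adjusted p = 0.318). Lalba (alpha-lactalbumin, of lactose synthesis) differed in replicate A alone, at 2598 against 5946 CPM, and stood at 4976 against 5036 CPM in replicate B. It passed the test together (log2 fold change -0.60 ± 0.15, adjusted p = 0.00509), but was 0.01 without replicate A (adjusted p = 0.986) and -1.19 without replicate B. Glycam1, the milk gene that rose, had no UMI in either sum of replicate A, and 70.4% of its UMIs in the proliferating cells of replicate B came from 1 cell.

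Genes of milk fat and alveolar differentiation fell in greater number than the milk proteins. Of 19 tested 14 fell, 9 of them in all 3 scalings, and 1 rose (Lpl, 1.07 and 4.73 CPM against 0.451 and 1.03 CPM). The call of Lpl was lost without replicate B (log2 fold change 1.17, adjusted p = 0.807). The median log2 fold change was -0.52. Btn1a1 (butyrophilin of the milk fat globule) was at 37.6 and 47.3 CPM against 91.6 and 140 CPM (log2 fold change -1.48 ± 0.16, adjusted p = 3.52e-08). Xdh, its partner in fat globule release, was at 54.8 and 76.4 CPM against 115 and 143 CPM. Trf (transferrin) fell to 22306 and 25399.7 CPM from 33425 and 34818 CPM. Cited4 was at 101 and 173 CPM against 318 and 284 CPM. In all 4 genes both proliferating sums lay below both matched sums, as did those of 29.4% of all genes tested.

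Proliferating cells were fewest among cells with the least milk RNA. With the cells of each library divided into 4 equal groups by milk UMIs at 3000, the lowest group held 5 proliferating cells of 519 in replicate A (0.963%, exact interval 0.314% to 2.23%) and 8 of 487 in replicate B (1.64%, 0.712% to 3.21%). The 3 other groups held between 2.12% and 3.28% in replicate A and between 5.54% and 6.98% in replicate B. Members found by the rule at 3000 UMIs were 3 of 519 and 1 of 487 in the lowest groups, against 4 to 8 in each higher group of replicate A and 9 to 15 in replicate B. Cells of the lowest group had been sequenced less deeply, with medians of 7746 UMIs against 9078 to 11040.5 in replicate A, and 12291 against 15806 to 18390 in replicate B. In replicate B the interval of the lowest group did not overlap those of the others, and in replicate A all 4 overlapped. With the rule at 3000 UMIs all 4 overlapped in replicate A, and in replicate B the lowest group (0.0052% to 1.14%) overlapped the next to highest (0.848% to 3.48%) and not the others (1.28% to 4.26% and 1.73% to 5.03%).

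**Figure D3:**
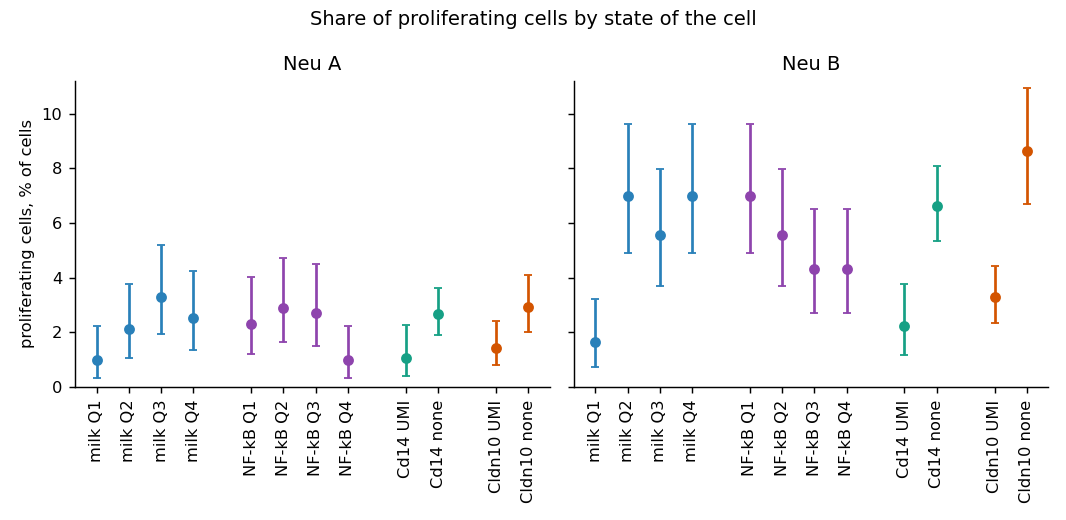
Proliferating cells, chosen at full depth, as a percentage of the cells of each group in Neu A and Neu B. The groups were set at 3000 UMIs per cell. They are 4 equal groups of milk protein UMIs (Q1 lowest), 4 of NF-kB target UMIs, and presence of a Cd14 or Cldn10 UMI. Bars are exact 95% intervals of counting error. The lowest milk group holds 0.963% and 1.64%, and cells with a Cd14 UMI hold 1.05% and 2.21% against 2.66% and 6.62% of cells without one. With the rule at 3000 UMIs, not drawn, the Cd14 shares were 0.702% and 0.340% against 1.20% and 2.57%, and their intervals overlapped in Neu A.

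Luminal progenitor genes and Cd14 were lower. Of 17 luminal progenitor genes 14 fell, 9 in all 3 scalings, and none rose (median log2 fold change -0.52). Cd14, a lipopolysaccharide co-receptor on luminal progenitors, was at 37.6 and 80.8 CPM in proliferating cells and 138 and 188 CPM in matched cells (log2 fold change -1.41 ± 0.16, adjusted p = 6.62e-08). At 3000 UMIs a Cd14 UMI was present in 6 of 46 proliferating cells in replicate A (13.0%) and 13 of 103 in replicate B (12.6%), against 27.8% and 31.2% of the other cells. In depth-matched cells it was present in 24 of 132 in replicate A (18.2%) and 86 of 260 in replicate B (33.1%), and the exact intervals overlapped in replicate A (4.94% to 26.3% against 12.0% to 25.8%) and not in replicate B (6.89% to 20.6% against 27.4% to 39.2%). Seen from the other side, 6 of 570 cells with a Cd14 UMI were proliferating in replicate A and 40 of 1505 without one. In replicate B these were 13 of 588 and 90 of 1360, and the median depths of these groups were 16075.5 and 15782 UMIs.

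Cldn10, a claudin, was lower as well. Its level was 131 and 169.5 CPM against 194 and 380 CPM (log2 fold change -0.93 ± 0.14, adjusted p = 7.18e-06), though without replicate B it was -0.57 (adjusted p = 0.075). Krt18, a luminal keratin, was at 671 and 1521 CPM against 968 and 2607 CPM, lower within each tumor although the tumors overlapped. Cd24a, the surface protein used in the sort, was at 407 and 295 CPM against 552 and 495 CPM. Malat1, a nuclear long noncoding RNA, fell to 5393 and 4751 CPM from 9014 and 8558 CPM (log2 fold change -0.80 ± 0.06, adjusted p = 7.63e-11). Cd36, a fatty acid transporter, was at 236 and 493 CPM against 320 and 645 CPM, and its call was lost with total counts (adjusted p = 0.144), without either Neu replicate (0.161 and 0.112) and without PyMT replicate A (0.0755). Of 21 genes listed here as the study's for Neu tumors 4 rose, all of the cell cycle, and 13 fell, 11 of them in all 3 scalings. The 4 were Birc5, Tyms, Pcna and Mki67, of which the study's text names Mki67 for BRCA1-null and 4T1 clusters and not for Neu. That list was drawn from these libraries and is no independent evidence.

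NF-kB targets fell in part. Of 25 tested 9 fell, 7 in all 3 scalings, and 1 rose. The median log2 fold change was -0.46. Nfkbia, the inhibitor that NF-kB induces, was at 195 and 117 CPM against 361 and 159 CPM (log2 fold change -0.65 ± 0.12, adjusted p = 0.000156), and without replicate A it was -0.41 (adjusted p = 0.124). Sod2, the mitochondrial superoxide dismutase, was at 271 and 279 CPM against 528 and 414 CPM. Traf1 was at 1.07 and 2.91 CPM against 17.6 and 11.3 CPM (log2 fold change -2.41 ± 0.51, adjusted p = 0.000698; -3.97 without replicate B), and DESeq2 did not call it (adjusted p = 0.108). Tnfrsf12a, the TWEAK receptor, was at 206 and 384 CPM against 183 and 393 CPM and was not called (adjusted p = 0.772). The 1 gene that rose was Csf3 (G-CSF), with 78.8% of its UMIs in proliferating cells of replicate A from 1 cell and 6.18 against 6.15 CPM in replicate B. Without replicate A it was 0.03 on the log2 scale (adjusted p = 0.982).

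Per cell, NF-kB target RNA overlapped between the groups. Medians at 3000 UMIs were 8.5 UMIs in proliferating and 8.0 in matched cells of replicate A, and 6.0 and 7.0 in replicate B. In the highest of 4 groups by NF-kB UMIs 5 of 518 cells were proliferating in replicate A (0.965%), against 12 to 15 of 519 in the others. In replicate B it was 21 of 487 in each of the upper groups and 34 of 487 in the lowest. The exact intervals overlapped in both replicates, and in replicate B they were 2.69% to 6.52% in the upper groups and 4.88% to 9.62% in the lowest. With the rule at 3000 UMIs the groups held 5, 9, 5 and 3 proliferating cells in replicate A, from lowest to highest. In replicate B they held 10, 10, 9 and 8.

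Genes of the STAT3 axis and of involution, the regression of the gland after weaning, fell furthest among the lists of cell state. Of 19 tested 10 fell, 9 in all 3 scalings, none rose, and the median log2 fold change was -0.74. Igfbp5, an insulin-like growth factor binding protein of involution, was at 277 and 266 CPM against 1005 and 902 CPM (log2 fold change -1.80 ± 0.09, adjusted p = 7.82e-15). Ctsl (cathepsin L) was at 72.0 and 74.2 CPM against 220.1 and 175 CPM. Stat3 itself was at 55.9 and 81.5 CPM against 114 and 152 CPM. Both replicates were low for each of these genes. Osmr, the oncostatin M receptor, was at 21.5 and 24.4 CPM against 37.4 and 48.4 CPM, and its call was lost without replicate B (log2 fold change -0.80, adjusted p = 0.219).

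Immediate early genes, which cell dissociation can also induce, were lower in 7 of 19 cases, 4 of them in all 3 scalings, and higher in 1. Jund was at 471 and 384 CPM against 716 and 537 CPM. Nr4a1 was at 88.1 and 39.7 CPM against 48.3 and 30.2 CPM, and its call was lost without replicate A (log2 fold change 0.42, adjusted p = 0.422) and with DESeq2 (adjusted p = 0.325).

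Metabolic genes diverged by pathway. Glycolysis fell in 8 of 18 tested genes, 4 in all 3 scalings, and rose in none, with a median log2 fold change of -0.33. The aldolases had the lowest adjusted p. Aldoa was at 686 and 1181.5 CPM against 1716 and 2864 CPM (log2 fold change -1.30 ± 0.08, adjusted p = 3.55e-13), and Aldoc at 1910.1 and 1671 CPM against 4922 and 3736 CPM (-1.26 ± 0.10, adjusted p = 1.08e-10). Pgk1 and Tpi1, enzymes of the steps that follow, were not called, with log2 fold changes of 0.12 (adjusted p = 0.42) and 0.19 (adjusted p = 0.164). With total counts they were called higher, at 0.31 (adjusted p = 0.0118) and 0.38 (adjusted p = 0.00134), and with 1 matched cell each likewise. At 3000 UMIs the glycolysis list had medians of 28.0 and 29.0 UMIs per proliferating cell and 42.0 and 39.5 per matched cell. Such sums weigh abundant genes most, and Aldoa and Aldoc were abundant and fell. Since 10 of the 18 tested genes did not pass, these medians do not show a fall of the whole list. The part of the aldolases in them was not tested.

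Lipid synthesis split between its branches. Of 25 tested genes for fatty acid and cholesterol synthesis 9 rose and 5 fell, 4 of the latter in all 3 scalings. Apart from the fatty acid elongase Elovl6, those that rose belong to the sterol branch, among them Idi1 (isopentenyl isomerase) at 73.1 and 50.2 CPM against 39.2 and 17.8 CPM, with a log2 fold change of 1.23 ± 0.20 (adjusted p = 2.45e-05). Without replicate B it was 0.90 (adjusted p = 0.0618). Fdps (farnesyl diphosphate synthase) was at 166 and 180 CPM against 111 and 84.2 CPM. Those that fell act in fatty acid synthesis or its control. Scd1 (stearoyl-CoA desaturase) was at 371 and 302 CPM against 1059.6 and 588 CPM (log2 fold change -1.22 ± 0.11, adjusted p = 2.88e-09). Srebf1, the transcription factor of fatty acid synthesis, was at 170 and 63.7 CPM against 533 and 136 CPM. This split into branches was noticed after the values were seen and was not tested.

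Energy production in mitochondria showed small changes. Of 71 genes for the respiratory chain and ATP synthase 2 rose and 19 fell, 5 of them in all 3 scalings, around a median of -0.08 that lay above the median of all genes. Cycs (cytochrome c) was at 334 and 448 CPM against 205 and 234 CPM (log2 fold change 0.83 ± 0.10, adjusted p = 4.55e-07). Of 13 mitochondrially encoded genes 8 fell, only 2 in all 3 scalings, mt-Co1 and mt-Co3. mt-Co1 was at 3339 and 5084 CPM against 5106 and 7492 CPM. Of 18 TCA cycle genes 1 rose and 3 fell, and none of the decreases was called in all 3 scalings. Of 14 hypoxia response genes 1 rose and 5 fell, 2 of them in all 3 scalings.

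Nucleotide synthesis rose as a list, and genes of protein synthesis moved both ways. Nucleotide synthesis genes rose in 18 of 21 cases and fell in none (median log2 fold change 1.42), led by Rrm2 and by Tk1 (thymidine kinase) at 198 and 124 CPM against 8.57 and 5.81 CPM. Of 21 translation factors and nucleolar genes 12 rose and 1 fell, and that decrease was not called with total counts. Cytosolic ribosomal protein genes went the other way, with none higher and 67 of 79 lower, 27 of them in all 3 scalings (median log2 fold change -0.31). That list was chosen after its values were seen. Ran, the GTPase of nuclear transport, was at 989 and 759.5 CPM against 283 and 184 CPM (log2 fold change 1.93 ± 0.10, adjusted p = 5.97e-15). Ncl (nucleolin) was at 664 and 580.2 CPM against 416 and 364 CPM (0.67 ± 0.09, adjusted p = 2.96e-06). Of 24 proteasome genes 6 rose, none fell and 18 did not pass, and the lowest adjusted p was that of Psmd14 at 112 and 94.2 CPM against 73.1 and 51.9 CPM. The call of Psmd14 was lost without replicate B (log2 fold change 0.61, adjusted p = 0.0667). Genes of ER folding and stress fell in 5 of 18 cases, 3 in all 3 scalings, with Xbp1, a transcription factor of secretory cells, at 363 and 532 CPM against 683 and 920.2 CPM.

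**Figure D4:**
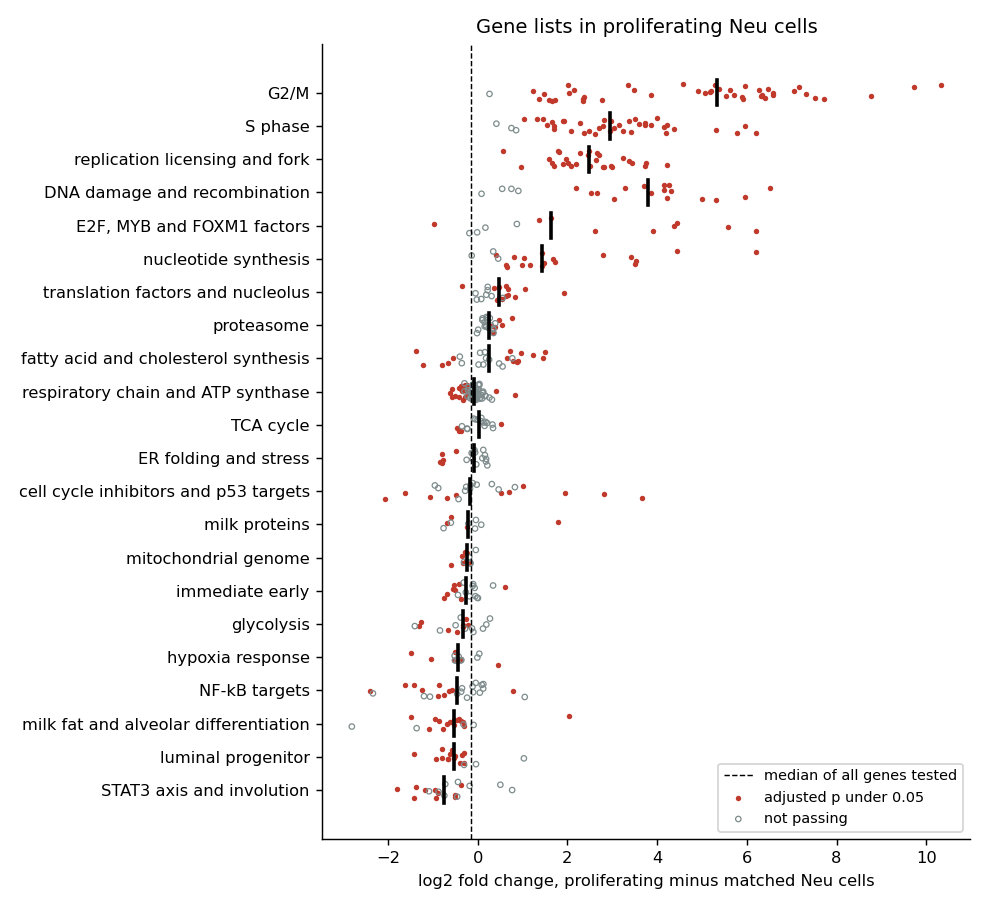
Log2 fold change (x axis) of each tested gene of 22 lists, proliferating minus matched Neu cells, filled where the adjusted p was under 0.05. Thick lines are list medians, and the dashed line is the median of all 9975 genes tested, -0.16. Lists not drawn include kinesins (median 6.28), kinetochore genes, cyclins, histones and cytosolic ribosomal proteins. Of the 22 lists drawn, G2/M has the highest median, 5.33, and STAT3 and involution the lowest, -0.74.

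Besides Igfbp5, Gadd45b and Btn1a1, the genes with the largest decreases at 50 CPM or more were Ddah2, Txnip, Mxd4, Clic6 and Sod3. Txnip, an inhibitor of thioredoxin and of glucose uptake, was at 49.4 and 88.8 CPM against 125 and 277 CPM (log2 fold change -1.55 ± 0.15, adjusted p = 4.48e-09). Mxd4, a repressor that pairs with the Myc partner Max, was at 32.2 and 34.2 CPM against 105 and 92.4 CPM (-1.52 ± 0.17, adjusted p = 8.04e-08). The others had log2 fold changes of -1.57 (Ddah2; -2.47 without replicate B), -1.51 (Clic6) and -1.51 (Sod3).

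Milk UMIs were counted over the whole range of S and G2/M RNA. Across cells at 3000 UMIs the milk sum had a Spearman rho with the S phase sum of 0.25 in replicate A and 0.04 in replicate B, and with the G2/M sum of -0.14 and 0.09. When the cells of a library were ordered by the S phase share of their cell cycle UMIs and divided in 3, Csn3 stood at 27654, 33320 and 36277 CPM from the lowest to the highest part in replicate A, and at 32277, 33536 and 31164 CPM in replicate B. Lalba was at 1943, 3013 and 4323 CPM in replicate A and at 4102, 5381 and 5311 CPM in replicate B. These levels are plain CPM and rest on 16 or 17 cells a part in replicate A and 34 or 35 in replicate B.

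Most of the change in proliferating Neu cells was not shown to differ from that in PyMT tumors. Chosen by the same rule, 149 of 3789 PyMT cells were proliferating, 26 of 1947 in replicate A and 123 of 1842 in replicate B. The difference between the effects was called upward in Neu for 90 genes (0.902% of those tested) and downward for 76 (0.762%), and without the replicate block no gene was called in either direction. No S phase gene of 41 was called, and 6 of 46 G2/M genes had a larger effect in Neu. Pttg1 was one of them, with a difference of 3.19 ± 0.27 on the log2 scale (adjusted p = 2.18e-08). Its level in proliferating PyMT cells was 102 and 83.3 CPM, and in their matched cells 38.7 and 27.2 CPM, so matched cells of PyMT held more of it than those of Neu. Prc1, which bundles spindle microtubules, was at 94.6 and 143 CPM in proliferating Neu cells and 75.9 and 107 CPM in PyMT, and in matched cells at 0.902 and 1.88 CPM against 7.14 and 14.1 CPM. The difference was 3.32 ± 0.39 (adjusted p = 8.61e-06), and without PyMT replicate B it was 2.89 (adjusted p = 0.0573).

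Cdkn2a had a larger effect in Neu as well. It was at 33.6 and 117 CPM in matched PyMT cells, 44.5 and 147 CPM in proliferating PyMT cells, and 0 and 1.03 CPM in matched Neu cells, and the difference of effects was 3.34 ± 0.54 (adjusted p = 0.000526). Aqp5, a water channel of secretory cells, fell in proliferating Neu cells, at 5261 and 4828 CPM against 8140.0 and 5846 CPM, and rose in those of PyMT, at 348 and 613 CPM against 276 and 396 CPM. The difference was -0.98 ± 0.12 (adjusted p = 1.4e-05), and the Neu decrease alone was lost without replicate A (-0.25, adjusted p = 0.147). Srebf1 fell in Neu and was at 31.4 and 32.7 CPM against 15.3 and 27.9 CPM in PyMT (difference -1.71 ± 0.26, adjusted p = 0.000269). Hist1h2bc, a histone whose mRNA is also made outside S phase, fell in both, with log2 fold changes of -0.62 in Neu and -1.83 in PyMT, and the Neu decrease was lost without replicate A (-0.37, adjusted p = 0.148). In list terms, respiratory chain genes rose in 27 of 71 cases in PyMT and in 2 of 71 in Neu. A difference was called for 4 genes only, with the lower effect in Neu. Over all 9975 genes tested, 1031 rose in PyMT and 1034 in Neu, around TMM medians of -0.06 and -0.16. With total counts the Neu median of the list was 0.11, against 0.02 for all genes. Cytosolic ribosomal protein genes were lower in 67 of 79 cases in Neu, and in PyMT 6 were lower and 3 higher. A lower effect in Neu was called for 12 of the 79, against 0.762% of all genes.

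**Figure D5:**
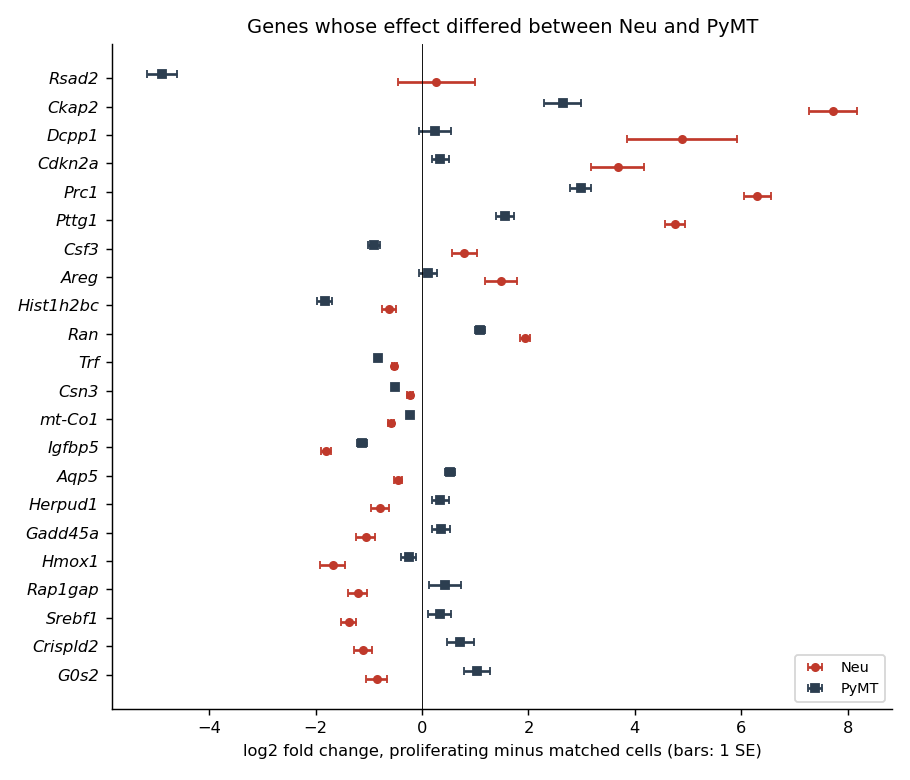
Log2 fold change between proliferating and matched cells (x axis; bars are 1 SE) in Neu (red circles) and PyMT (dark squares) for the 22 named genes whose effects differed at an adjusted p under 0.05. Prc1, Pttg1 and Ckap2 rise in both tumor types and by more in Neu, and Aqp5 falls in Neu and rises in PyMT.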

How the data were processed

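UMI counts per gene and cell were used as deposited by the authors, who made them with Cell Ranger (versions 2.2.0 and 3.0.2 in the submitters' processing notes, with STAR and mm10). Each library was 1 matrix with a column per barcode, and no column of per-sample values was left unused. No normalized value of the authors was used.

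Cells with at least 1000 UMIs, at least 500 genes and under 20% mitochondrial UMIs were kept. The members and gene lists were chosen with earlier results of these data known. Each member was matched to up to 3 cells of its library with no UMI of the 8 rule genes, within 10% of its UMI total. Counts were summed per library and set. Sums of the 2 Neu and 2 PyMT tumors were fitted with edgeR 4.0.16 in R 4.3.3 (filterByExpr, TMM, quasi-likelihood test, Benjamini-Hochberg adjustment over all genes), with the library as a block and an effect per tumor type. Standard errors are the log2 fold change divided by the square root of F. CPM are TMM-scaled except where given as plain CPM or for summed marker lists and phase sums. The script was tested on simulated data.

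Both sums of a pair come from the same tumor, which sets the pairing. The deviations of paired sums from their set means correlated at 0.57 in Neu and 0.30 in PyMT. With the library as a block, p-values rest on how the effect varied between the 2 tumors of a type, not on level differences between tumors. That spread had 2 residual degrees of freedom, shared by Neu and PyMT. Both PyMT tumors grew from a single line, so their part is spread between grafts of that line. It may be smaller than the spread between spontaneous tumors, which was not tested. The test also borrowed spread from the other genes, with 24.24 prior degrees of freedom, so small p-values rest largely on that borrowing. They cover these tumors only.

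Per-cell values and shares by state were taken after thinning each cell to 3000 UMIs, which left out 3 proliferating cells of Neu A. Doublets were called with Scrublet in scanpy 1.11.5. Intervals of shares are exact Clopper-Pearson (95%), and cover counting error only, as does the floor of 3 counts.

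Named were the study's own genes for Neu, with Mki67 added to them, and up to 8 genes a direction by size of change. The latter were called, with a mean of 50 CPM or more and sets that did not overlap. Also named were up to 2 a direction from each list by adjusted p, and up to 5 a direction for the difference from PyMT. Cdc20, Mcm5, Sod2, Stat3, Traf1, Xdh, Pgk1, Tpi1, Elovl6 and the promoters shown were chosen after their values were seen. Alternatives covered the rule's threshold, depth matching, filters, scaling, DESeq2 1.42.0, the block, doublets, added libraries and leaving out each library.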

Additional observations from a re-analysis of the deposited data

Results flagged for a closer look

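The change between proliferating and matched cells differed between Neu and PyMT tumors, by the test of the difference itself, for 90 genes in the upward and 76 in the downward direction at an adjusted p under 0.05 (edgeR's quasi-likelihood test). Differences below are log2 fold changes in Neu minus those in PyMT. None of the 22 named differences passed without the replicate block, and the causes were not tested.

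Among genes of the cell cycle, Ckap2, a spindle protein, differed by 5.08, Prc1 by 3.32 and Pttg1 by 3.19. Ckap2 had 230 UMIs in the proliferating Neu cells and only 2 in the matched ones. That ratio of 286 had an exact counting interval of 78.2 to 2373, so the size of the Ckap2 difference is loosely set. Cdkn2a differed by 3.34 and the histone Hist1h2bc by 1.21, and Ran by 0.84. In matched PyMT cells Prc1, Pttg1 and Cdkn2a stood higher than in matched Neu cells. The difference of Prc1 was lost without PyMT replicate B.

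Milk and secretory genes differed in both directions, with Csn3 at 0.28, Trf at 0.31 and Aqp5 at -0.98. The difference of Csn3 was lost without Neu replicate A and without PyMT replicate A, and that of Trf without PyMT replicate B.

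Other genes with a lower effect in Neu were Gadd45a at -1.42, Herpud1 (ER stress) at -1.13, Hmox1 (heme oxygenase) at -1.43 and Igfbp5 at -0.68. The same direction held for Srebf1 at -1.71, G0s2 (an inhibitor of fat breakdown) at -1.89, mt-Co1 at -0.36, Rap1gap at -1.64 and Crispld2 at -1.83. Those of Gadd45a and Hmox1 were lost without Neu replicate B, those of Herpud1, Hmox1, Rap1gap, Crispld2 and mt-Co1 without PyMT replicate B, those of Igfbp5 and mt-Co1 without PyMT replicate A, and that of mt-Co1 also without Neu replicate A.

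Single cells carried several of the upward differences. Areg (amphiregulin) differed by 1.36, with 79.2% of its UMIs in proliferating cells of Neu B from 1 cell, and Dcpp1 by 4.64, with 89.8% from 1 cell. Csf3 differed by 1.70, with 78.8% of its UMIs in proliferating cells of Neu A from 1 cell. The differences of Areg and Dcpp1 were not called without Neu replicate B, that of Csf3 without Neu replicate A, and that of Areg without PyMT replicate B. Rsad2, an interferon response gene, differed by 5.15 and stood at 157 CPM in the matched cells of PyMT replicate B against 17.3 CPM in those of replicate A. That difference was lost without Neu replicate A and without PyMT replicate B.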

How the results depend on the processing

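Counts of calls depended on the design, the scaling, the filters and the rule, and were lowest without the replicate block. Against 1034 higher and 1498 lower genes, the fit without the replicate block gave 353 and 35, and DESeq2 gave 558 and 211. Lower genes numbered 703 with 1 matched cell each, 865 with 2 or more and 987 with 4 or more rule genes, 817 with BRCA1-null libraries added, 920 at a mitochondrial limit of 10%, 589 with the rule at 3000 UMIs and 769 with total counts. Leaving out 1 library gave 565 to 1350 higher and 653 to 1763 lower genes.

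Against 90 genes with a Neu effect above that of PyMT and 76 below it, the fit without the replicate block gave 0 and 0. The counts above and below were 160 and 32 with 1 matched cell each, 227 and 48 with 2 or more rule genes, 239 and 46 with 4 or more, 20 and 5 with BRCA1-null libraries added, 32 and 5 with DESeq2, 148 and 44 with DESeq2 size factors, and 220 and 36 at the mitochondrial limit of 10%. Above alone, they were 514 without depth matching and 170 with total counts, and below alone 15 with the rule at 3000 UMIs. Leaving out 1 library gave 66 to 179 above and 32 to 100 below. The causes were not tested. Unadjusted p under 0.05 held for 464 genes above and 743 below.

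The share of proliferating cells was 2.99% in Neu A and 8.31% in Neu B with 2 or more rule genes, 4.11% in Neu B with 4 or more, and 1.06% and 1.90% with the rule at 3000 UMIs.

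Of 2044 values for 108 named genes under an alternative, 1781 kept their direction and side of the threshold, 216 lost the call (64 without the replicate block, 32 with DESeq2), 18 gained it and 29 turned direction. The log2 fold change of Csn1s2a turned to 0.036 without the replicate block, 0.080 with Neu libraries alone, 0.26 with 1 matched cell, 0.49 without depth matching, 0.043 with 2 or more and 0.027 with 4 or more rule genes, 0.36 with the rule at 3000 UMIs, 0.078 at the mitochondrial limit, 0.035 with DESeq2 size factors, 0.15 with total counts, 0.034 with DESeq2, and lay between -0.34 (without Neu replicate B) and 0.28 (without Neu replicate A) when 1 library was left out, with 0.083 without PyMT replicate A. Csn1s1 turned to 0.0074 with 1 matched cell, 0.054 without depth matching and 0.18 without Neu replicate A (-0.58 without Neu replicate B), Csn3 to 0.028 with the rule at 3000 UMIs, Cd36 to 0.053 without depth matching and Lalba to 0.0073 without Neu replicate A (-1.19 without Neu replicate B). Rsad2 turned to -1.70 without depth matching, -0.012 with 2 or more and -1.11 with 4 or more rule genes, and -0.29 without Neu replicate A (1.22 without Neu replicate B). Areg turned to -0.44 with 4 or more rule genes, -0.41 with DESeq2 and -6.64 without Neu replicate B (1.77 without Neu replicate A). Csf3 turned to -1.40 with the rule at 3000 UMIs, Bcl3 to 0.12 without Neu replicate B (-0.73 without Neu replicate A) and Tnfrsf12a to -0.011 without Neu replicate A (0.17 without PyMT replicate A).

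Of 394 values for the 22 differences from PyMT, 304 kept the call, 84 lost it and 6 turned. Areg turned to -0.58 with 4 or more rule genes, -0.52 with DESeq2 and -6.75 without Neu replicate B (1.62 without Neu replicate A), Csf3 to -0.66 with the rule at 3000 UMIs, and Dcpp1 to -0.21 with 4 or more rule genes and -0.82 with the rule at 3000 UMIs. Depth limits the rule itself, since a cell must be sequenced deeply enough for 3 of the 8 genes to be seen.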
